A study of Mus musculus with 4 samples.

Results

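Heparan sulfate modifying enzymes were described here across the mesenchymal stromal cells (MSC) of the mouse small intestine and colon. The 9 genes, Ext1, Ndst1, Hs6st1, Hs6st2, Hs3st1, Hs3st6, Sulf1, Sulf2 and Hpse, were chosen from their measured levels by intestine and cell class in these same libraries, out of 28692 genes in the count tables. Their levels and the differences between the intestines are therefore given as a description and carry no test, and each symbol matched 1 row of the tables. Single cell RNA-seq was performed on 2 libraries of small intestinal and 2 of colonic lamina propria MSC. All 4 libraries came from untreated female C57BL6/Nrj mice of 8 to 10 weeks, in 2 experiments with 3 pooled mice each, so that a library stands for a pool and not for 1 animal. The muscularis externa was removed, and live cells that lacked CD45, Ter119, CD31, BP3, EpCAM and L1CAM and carried Itgb1 were sorted.

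Heparan sulfate is a long sugar chain attached to proteoglycans at the cell surface and in the matrix, where it binds growth factors, morphogens and chemokines. The chain is polymerized in the Golgi by exostosins such as EXT1, its glucosamines are N-sulfated by NDST enzymes, and sulfate groups are then added at the 6-O and, more rarely, the 3-O position. After secretion, SULF1 and SULF2 remove 6-O-sulfates outside the cell and heparanase cuts the chain, so that the set of enzymes in a fibroblast (FB) bears on which ligands its chains can hold.

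For Hs3st1 and Hpse, which lay on opposite sides in the PDGFRαhi FB of the 2 intestines, the 250 bases upstream of the RefSeq start are shown. They lie at chr5:39644632-39644881 and chr5:100719717-100719966, both on the minus strand of build GRCm38.p6, and are written 5′ to 3′ with capitals for the motifs searched.
Hs3st1 upstream: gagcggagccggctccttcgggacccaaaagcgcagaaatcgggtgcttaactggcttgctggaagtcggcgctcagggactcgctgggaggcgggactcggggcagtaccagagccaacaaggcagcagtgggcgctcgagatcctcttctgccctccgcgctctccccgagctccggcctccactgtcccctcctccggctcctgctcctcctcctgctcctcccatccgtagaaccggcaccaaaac
Hpse upstream: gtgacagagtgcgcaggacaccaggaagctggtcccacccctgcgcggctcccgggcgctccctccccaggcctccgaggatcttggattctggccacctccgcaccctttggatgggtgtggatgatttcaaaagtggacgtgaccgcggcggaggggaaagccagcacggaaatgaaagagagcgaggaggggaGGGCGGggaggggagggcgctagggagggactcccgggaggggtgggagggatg
Both strands were searched. The GC box (GGGCGG) was found in 32.7% of 32817 RefSeq promoter stretches of this length, and the Hpse stretch held 1 of them, which is the single match in the pair. The Hs3st1 stretch held no match to any motif searched. The other motifs searched were the TATA box (TATAAA), found in 12.4% of all stretches, the CCAAT box (CCAAT) in 33.8%, a GATA motif (AGATAA) in 9.99% and a HOX or CDX type motif (TTTATTG) in 4.20%. Both stretches were GC rich, at 66.0% for Hs3st1 and 66.8% for Hpse against a median of 52.4% over all stretches, and held 19 and 16 CpG dinucleotides against a median of 6.0. The Hs3st1 start used here lies inside the annotated gene, whose span reaches further upstream. The table held a promoter for 5 of the 9 genes, and Hs3st6, Sulf1, Ndst1 and Ext1 are named only.

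The 4 libraries held 34983 barcodes and between 14341443 and 52269372 unique molecular identifiers (UMIs), and 28990 cells were kept. The first replicate of each intestine held few but deep cells (1807 and 2384 cells, median 6950 and 8810 UMIs), and the second held many shallower cells (13399 and 11400 cells, median 2694 and 3855 UMIs). The protocol names a 3′ and a 5′ kit without saying which library had which, so that kit and replicate cannot be told apart, and values are given for each library below. Between 0 and 69 barcodes were shared by a pair of libraries. Cells were gated one by one on marker genes as pericytes, smooth muscle cells (SMC), PDGFRαhi FB, PDGFRαlo FB or CD81+ FB, and 15.2 to 24.1% of cells in a library stayed ungated. Despite the sort, 322 and 233 cells of the first replicates of small intestine and colon were gated as endothelial, against 1 and 20 in the second.

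PDGFRαhi FB, the subepithelial fibroblasts known for Bmp and Wnt ligand expression, numbered 162 and 964 cells in the small intestinal libraries and 549 and 2346 in the colonic ones. All 10 of their markers had UMIs in every library, with a summed level of 4195 and 4334 CPM (UMIs of a gene per 1000000 UMIs of the class sum) in the small intestine and 4382 and 3657 CPM in the colon. PDGFRαlo FB, gated as fibroblasts with a low PDGFRαhi score and a low CD81+ score within their library, numbered 469 and 7175 cells in the small intestine and 543 and 3958 in the colon. CD81+ FB numbered 284, 1841, 323 and 1907 cells in the same order, and SMC 61, 127, 239 and 730. Within a class the UMIs of each library were summed, and levels are given as CPM of that sum.

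Ext1, a subunit of the chain polymerase (chr15:53064038-53346159, GRCm38, minus strand), was present in each stromal class. In PDGFRαhi FB it measured 28.4 and 58.7 CPM in the small intestine and 26.8 and 51.3 CPM in the colon, and the 2 intestines overlapped. PDGFRαlo FB had 67.1 and 114 CPM in the small intestine and 48.2 and 114 CPM in the colon, again overlapping. In CD81+ FB it stood at 68.5 and 120.0 CPM against 73.9 and 174 CPM. The higher value belonged to replicate 2 in each of these pairs, so that the libraries lay further apart by replicate than by intestine. Without colon replicate 2 the log2 difference of Ext1 was -1.01 in PDGFRαlo FB and -0.56 in CD81+ FB, where it had been positive. SMC were the exception, with 42.6 and 78.9 CPM in the small intestine and 9.75 and 22.4 CPM in the colon, a log2 fold difference of -1.86 (SE 0.54).

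Ndst1, which replaces N-acetyl groups of glucosamine by N-sulfates, had a lower mean in the colon in all 4 classes given here, but the replicates lay far apart. Among libraries of the same replicate number the colonic one was lower in each of these classes. Colon minus small intestine was -15.5 and -16.3 CPM in PDGFRαhi FB and -12.0 and -11.9 CPM in CD81+ FB. PDGFRαhi FB had 26.3 and 46.8 CPM in the small intestine and 10.8 and 30.5 CPM in the colon. PDGFRαlo FB had 30.7 and 62.8 CPM against 16.8 and 30.6 CPM, a narrow separation of the lowest small intestinal from the highest colonic library. In CD81+ FB the intestines overlapped, at 25.1 and 40.4 CPM against 13.0 and 28.6 CPM, and in SMC they did not, at 31.9 and 41.0 CPM against 12.3 and 18.4 CPM. Without colon replicate 2 the PDGFRαhi FB difference was -1.69 on the log2 scale in place of -0.65 (SE 0.62), and that in CD81+ FB was -1.55. That fit set colon replicate 1 alone against both small intestinal replicates, so that the offset between replicates entered it.

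Hs6st1, which adds 6-O-sulfates (chr1:36068400-36106446, plus strand), was higher in the small intestine in 3 classes. In PDGFRαhi FB it measured 36.5 and 48.5 CPM in the small intestine against 16.1 and 23.7 CPM in the colon, without overlap, for means of 42.5 ± 8.53 and 19.9 ± 5.39 CPM (SD, n = 2). PDGFRαlo FB had 22.1 and 26.5 CPM against 8.82 and 14.3 CPM. CD81+ FB overlapped, at 17.6 and 21.7 CPM against 12.7 and 17.9 CPM. Within replicates 1 and 2 the colon minus small intestine difference there was -4.95 and -3.75 CPM. In SMC, the values were 13.3 and 18.9 CPM against 5.64 and 7.62 CPM, from only 5 and 6 UMIs in the small intestine. An antisense gene overlaps exons of Hs6st1, and 10x counting assigns reads by strand.

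Hs6st2, the other 6-O-sulfotransferase of the group (chrX:51387212-51681856, minus strand), had 16 UMIs in all 5 stromal classes together. No class of a library had more than 4 of them. It was below the low-count filter in every fit and no difference was detectable at this depth.

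Hs3st1, a 3-O-sulfotransferase best known for making the antithrombin-binding sequence (chr5:39613935-39755475, minus strand), measured 101 and 59.6 CPM in small intestinal PDGFRαhi FB, from 150 and 135 UMIs. Colonic PDGFRαhi FB had 2.79 and 1.92 CPM, from 17 and 19 UMIs in much larger UMI totals. The groups lay far apart, with means of 80.4 ± 29.5 and 2.36 ± 0.62 CPM (SD, n = 2), a 34.1-fold ratio, and a fitted log2 difference of -4.95 (SE 0.44). With doublets kept the fitted difference was -4.08. The 7 pericyte markers summed to 1088 and 718 CPM in small intestinal and 146 and 94.3 CPM in colonic PDGFRαhi FB, with 1 and 2 of them at 0 in the small intestine and 2 and 3 in the colon. Their part in the PDGFRαhi FB values was not tested. The 6 SMC markers in PDGFRαhi FB also moved with intestine, at 419 and 384 CPM against 137 and 128 CPM, with 2 and 3 of 6 at 0 in the small intestine and none in the colon. The 7 CD81+ FB markers were at 118 and 420 CPM against 62.3 and 91.9 CPM, with 2 of 7 at 0 in the first small intestinal and 1 of 7 in the first colonic library, and the part of both lists was not tested either.

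The other fibroblasts did not show this for Hs3st1. PDGFRαlo FB had 71.8 and 47.2 CPM in the small intestine and 78.1 and 48.5 CPM in the colon, overlapping and within 1.06-fold on average. CD81+ FB had 37.6 and 22.5 CPM in the small intestine and 96.4 and 41.7 CPM in the colon, higher in both colonic libraries. Hs3st1 in SMC was 37.3 and 31.6 CPM against 10.3 and 5.38 CPM. Endothelial cells, which the sort was meant to remove, had 94.2 CPM in the first small intestinal and 104 CPM in the first colonic library. The endothelial markers in PDGFRαhi FB summed to 49.3 and 49.9 CPM in the small intestine and 12.2 and 13.4 CPM in the colon, with 4 of 7 and 2 of 7 markers at 0 in the small intestine and 4 of 7 and 3 of 7 in the colon, and their part in the Hs3st1 difference was not tested.

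Hs3st6, a further 3-O-sulfotransferase (chr17:24752988-24758684, plus strand), had 273 of its 354 UMIs in the 5 stromal classes in small intestinal PDGFRαhi FB. It measured 70.9 and 74.1 CPM there, from 105 and 168 UMIs, and the 2 libraries lay close together. Colonic PDGFRαhi FB had 0 UMIs of 6084743 in the first library, for which a floor of 3 counts is 0.493 CPM, and 3 UMIs (0.303 CPM) in the second. The count ratio of small intestine over colon was 388 (exact 95% interval 131 to 1894), an interval that covers counting error only, as do all intervals given here.

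In PDGFRαlo FB the small intestine had 5 and 63 Hs3st6 UMIs (1.49 and 3.26 CPM) and the colon none, so that the small intestine was at least 19.8-fold higher against a floor of 3 counts over the colonic libraries together. This bound pools the libraries and rests mostly on the second small intestinal one, which held 63 of the 68 UMIs. In the second small intestinal library 33 of those 63 UMIs fell in the 1014 PDGFRαlo FB with an Fgfr2 but no Cd34 UMI, at 12.6 CPM, and 4 in the 3336 cells with Cd34 but no Fgfr2 UMI, at 0.429 CPM. The first small intestinal library had too few such cells to resolve an order, with 0 UMIs in 56 such Fgfr2 cells and 1 in 159 such Cd34 cells. CD81+ FB had no Hs3st6 UMI in any library. The 3 UMIs in small intestinal pericytes all came from the second library, whose 37 pericytes also had 1532 CPM of PDGFRαhi markers in sum against 112 CPM in the first.

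**Figure D1:**
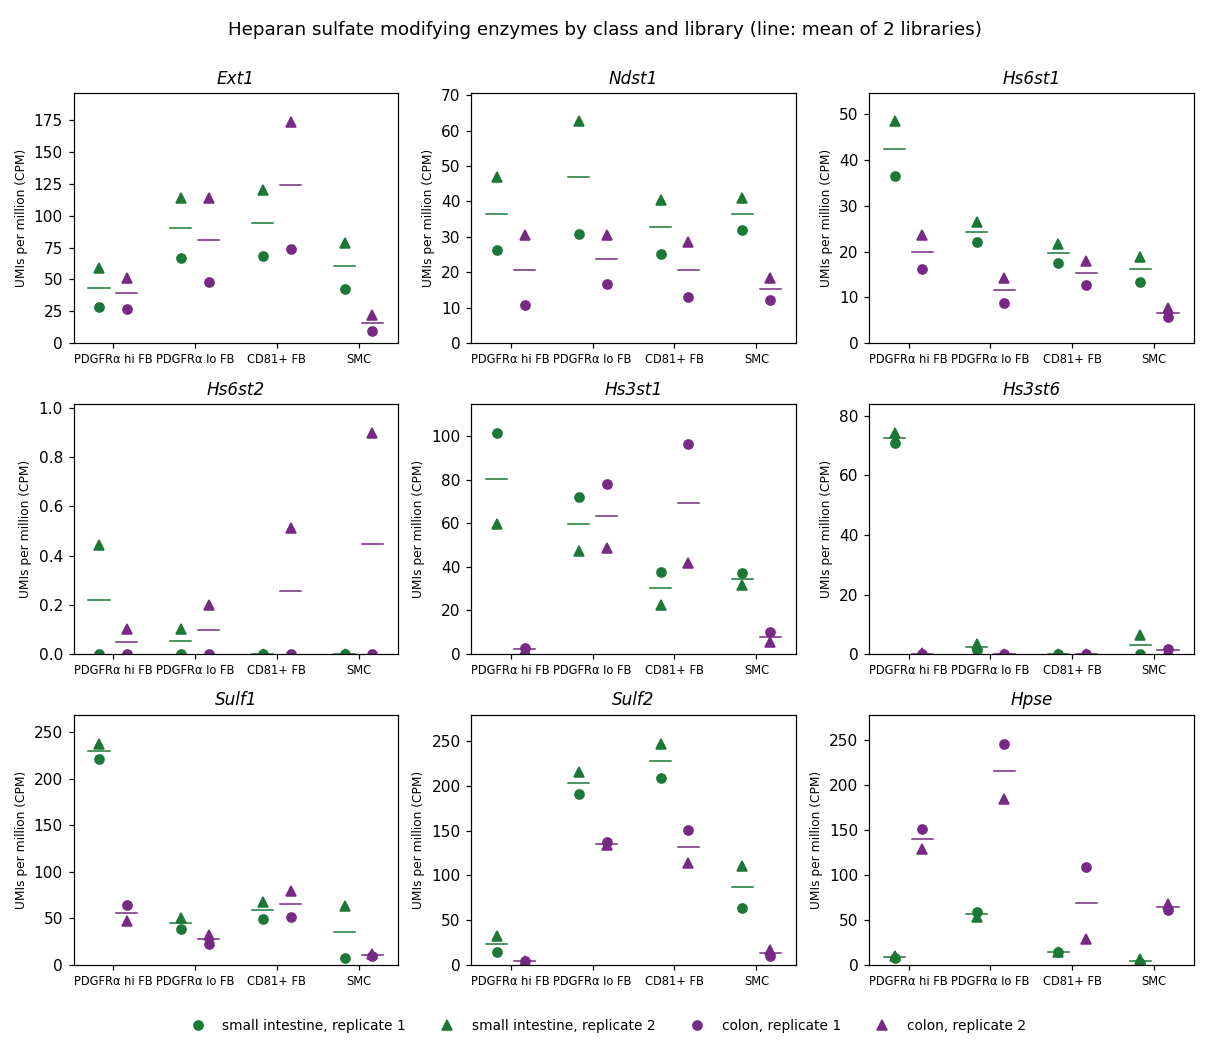
Level of each gene (y axis, UMIs scaled to CPM) in 4 stromal classes (x axis) for the 2 small intestinal (green) and 2 colonic (purple) libraries, with replicate 1 as circles, replicate 2 as triangles and lines at the mean of the pair. Hs3st6 stands at 70.9 and 74.1 CPM in small intestinal PDGFRαhi FB and at no more than 6.31 CPM in the other classes, while Hpse is higher in the colon.

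Sulf1, which removes 6-O-sulfates from chains outside the cell (chr1:12692277-12861192, plus strand), was highest in small intestinal PDGFRαhi FB. It measured 222 and 237 CPM there and 64.8 and 47.5 CPM in colonic PDGFRαhi FB, for means of 229 ± 11.2 and 56.1 ± 12.2 CPM (SD, n = 2), a 4.09-fold ratio. PDGFRαlo FB had lower levels in both intestines, at 38.4 and 50.9 CPM against 22.6 and 32.3 CPM. CD81+ FB overlapped, at 49.3 and 68.0 CPM against 51.0 and 79.9 CPM. In SMC the first small intestinal library (7.98 CPM, 3 UMIs) lay below both colonic ones (9.24 and 12.1 CPM) and the second far above (63.1 CPM), and without that second library the log2 difference turned from -1.65 to 0.47.

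Sulf2, its paralog with the same known activity (chr2:166073089-166155663, minus strand), had the reverse class pattern. PDGFRαlo FB had 190.5 and 215 CPM in the small intestine and 138 and 134 CPM in the colon, and CD81+ FB had 209 and 247 CPM against 151 and 113 CPM. PDGFRαhi FB had only 14.9 and 32.2 CPM in the small intestine and 3.94 and 4.54 CPM in the colon. The small intestine was thus higher without overlap in these 3 classes, by 1.5-fold, 1.72-fold and 5.55-fold. When clusters rather than single cells were gated, the PDGFRαhi FB difference was -1.12 on the log2 scale in place of -2.33 (SE 0.48). Sulf2 shares exonic sequence with Ncoa3 on the opposite strand.

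Sulf2 in SMC was 63.9 and 110.4 CPM in the small intestine and 10.3 and 16.6 CPM in the colon, a log2 difference of -2.64 (SE 0.47) that was -3.38 when clusters were gated. The 6 general fibroblast markers all had UMIs in the SMC of each library, with a summed level of 7855 and 15526 CPM in the small intestine and 6128 and 7325 CPM in the colon. The 6 genes described for PDGFRαlo FB subsets (Fgfr2, Cd34, Igfbp5, Thy1, Pparg and Adamdec1) summed to 8172 and 6169 CPM in small intestinal SMC, with 2 and 1 of them at 0, and to 1377 and 1060 CPM in colonic SMC, with none at 0. In PDGFRαlo FB of the small intestine that sum was 8884 and 7395 CPM. The 7 CD81+ FB markers summed to 1384 and 2076 CPM in small intestinal and 397 and 462 CPM in colonic SMC, with 2 of 7 at 0 in the first small intestinal and 1 of 7 in the first colonic library. The 7 pericyte markers were at 1557 and 798 CPM against 443 and 409 CPM, with 0 and 2 of 7 at 0 in the small intestine and 1 of 7 in each colonic library. The part of these fibroblast and pericyte markers in the SMC differences of Sulf2, Ext1, Hs3st1, Ndst1 and Hs6st1, and of Hpse2 and Gpc6 below, was not tested.

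Hpse, the gene of heparanase (chr5:100679484-100719716, minus strand), was higher in the colon in PDGFRαhi FB, PDGFRαlo FB, CD81+ FB and SMC. PDGFRαhi FB had 8.10 and 9.71 CPM in the small intestine and 151 and 128 CPM in the colon, for means of 8.91 ± 1.13 and 140 ± 15.8 CPM (SD, n = 2), a 15.7-fold ratio. The fitted log2 difference was 4.10 (SE 0.29), and 6.01 when clusters were gated. PDGFRαlo FB had 59.0 and 53.8 CPM against 245 and 185 CPM, a 3.81-fold ratio with no overlap. Within PDGFRαlo FB the 7 CD81+ FB markers summed to 3334 and 3706 CPM in the small intestine and 1198 and 1304 CPM in the colon, with 1 of 7 at 0 in the first colonic library. In CD81+ FB themselves that sum was 4575 and 5395 CPM in the small intestine and 3620 and 4145 CPM in the colon. Within PDGFRαlo FB the 7 pericyte markers summed to 926 and 824 CPM against 63.1 and 60.2 CPM, with 1 of 7 at 0 in each small intestinal library. Their part in the PDGFRαlo FB values of Hpse and the other genes was not tested.

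The remaining classes were less even for Hpse. In CD81+ FB the small intestine had 14.9 and 14.2 CPM and the colon 109 and 28.8 CPM, and the log2 difference of 2.04 (SE 0.63) was 0.87 without colon replicate 1 and -0.01 when clusters were gated. The CD81+ FB gated cell by cell did not sit in the same clusters in each library: 158 of 323 in colon replicate 1 lay in CD81+ clusters and 162 in PDGFRαlo clusters, against 236 and 46 of 284 in small intestine replicate 1. In the second replicates 1512 of 1907 colonic and 1495 of 1841 small intestinal cells lay in CD81+ clusters. The same cells gave the CD81+ FB values of Hs3st1. SMC had 1 and 2 Hpse UMIs in the small intestine (2.66 and 6.31 CPM) and 119 and 152 UMIs in the colon (61.1 and 68.1 CPM), a count ratio of 15.0 (exact 95% interval 5.07 to 73.1), and the fitted log2 difference of 3.89 was 1.99 when clusters were gated. Colonic SMC also carried fibroblast markers, as given above, and the part of these in the SMC level of Hpse was not tested. Endothelial cells had 4 Hpse UMIs in the first small intestinal library (2.69 CPM) and none in the first colonic one.

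**Figure D2:**
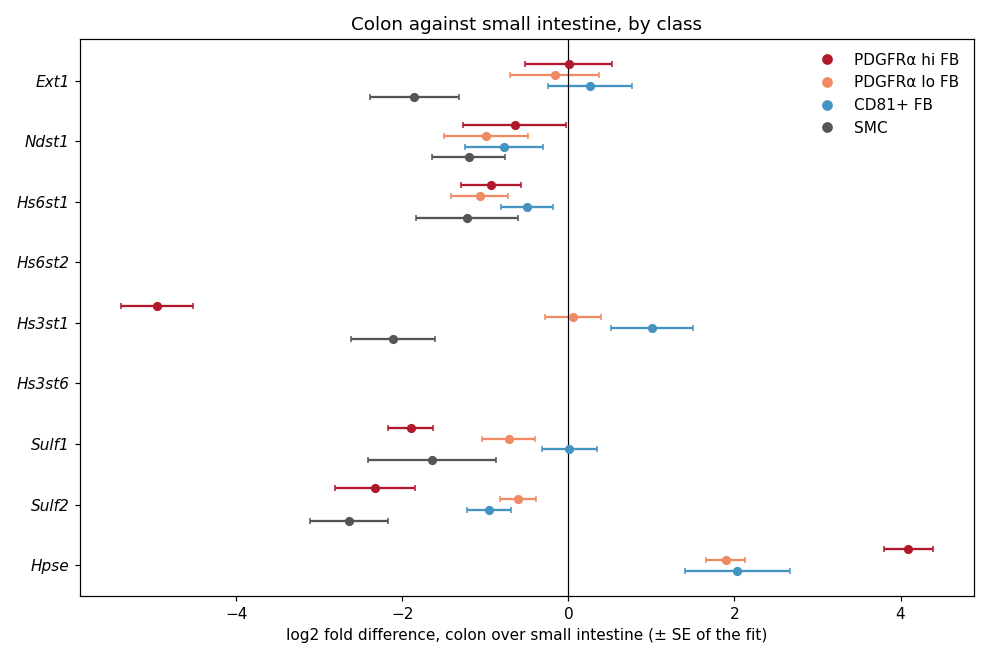
Fitted log2 fold difference of colon over small intestine (x axis, bars ± SE of the edgeR fit over 2 against 2 libraries) for the genes (y axis) in 4 stromal classes (colours). Values with 3 or fewer UMIs in either intestine, among them all of Hs3st6 and Hs6st2, are left out. Hpse lies to the right of 0 in each class drawn, and Hs3st1 lies at -4.95 in PDGFRαhi FB and near 0 in PDGFRαlo FB.

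Sums over cells cannot tell fewer expressing cells from less RNA per cell. Shares of cells with a UMI, taken after thinning each cell to 1000 UMIs, do not separate them either, since at well under 1 UMI per cell they follow the CPM of the same UMIs, and they are given as a description only. Hs3st6 was detected in 4.94% of 162 and 7.37% of 964 small intestinal PDGFRαhi FB, and in 0 of 549 and 0.0853% of 2346 colonic ones. Unthinned, these shares were 40.7 and 15.7% against 0 and 0.128%, and the first pair followed the deeper reads of replicate 1. Of the 322 endothelial cells of the first small intestinal library, 1 had an Hs3st6 UMI without thinning (0.311%, median depth 4561 UMIs, against 9434 UMIs in the PDGFRαhi FB of that library) and none after it.

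For Hs3st1 the thinned share in PDGFRαhi FB was 9.88 and 5.39% in the small intestine and 0.729 and 0.0853% in the colon. Sulf1 was detected in 13.0 and 20.9% of small intestinal and 5.28 and 4.43% of colonic PDGFRαhi FB. Hpse was detected in 0.617 and 0.830% of small intestinal and 12.2 and 11.7% of colonic PDGFRαhi FB, against 0.311% of 322 endothelial cells in the first small intestinal library. Unthinned shares were 53.1 and 13.1% against 2.19 and 0.682% for Hs3st1, 71.0 and 39.4% against 42.6 and 16.5% for Sulf1, and 5.56 and 1.66% against 66.1 and 36.6% for Hpse.

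**Figure D3:**
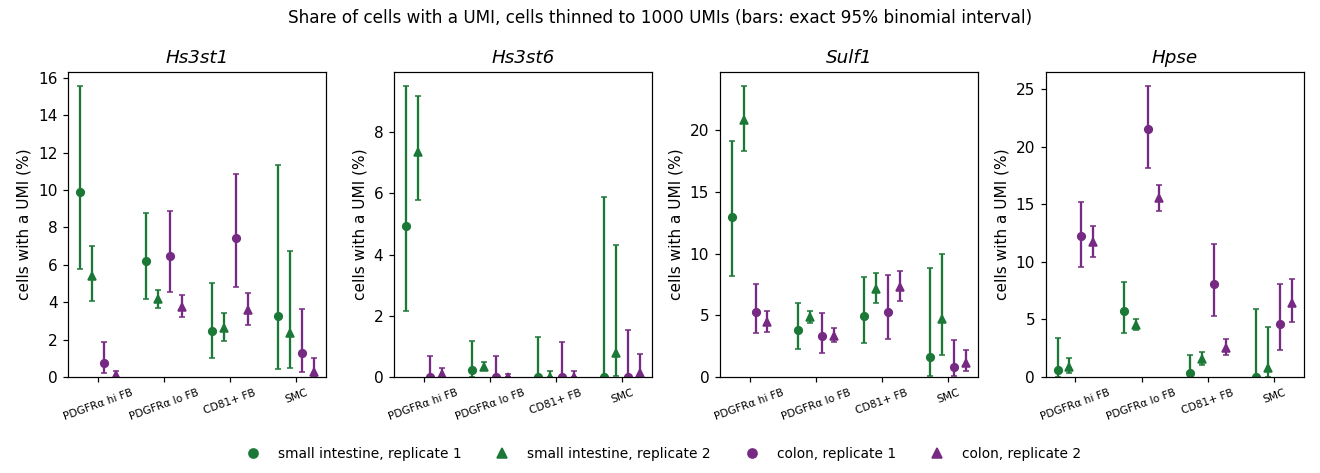
Share of cells with at least 1 UMI after thinning each cell to 1000 UMIs (y axis, percent, bars the exact 95% binomial interval) for 4 genes in 4 stromal classes (x axis), 2 small intestinal (green) and 2 colonic (purple) libraries. In PDGFRαhi FB the colonic shares of Hs3st1, Hs3st6 and Sulf1 lie below the small intestinal ones, and those of Hpse above them.

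In small intestinal PDGFRαhi FB Hs3st1 and Hs3st6 were also read in the same cells. Hs3st6 was detected in 45.3% of 86 cells with an Hs3st1 UMI (exact 95% interval 34.6 to 56.5) and in 35.5% of 76 cells without one (24.9 to 47.3) in the first library. In the second library the shares were 14.3% of 126 cells (8.69 to 21.6) and 15.9% of 838 cells (13.5 to 18.5). The intervals overlapped in both libraries, so that no preference for or against the same cells was detectable at this depth.

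Colonic PDGFRαhi FB were further split by a UMI of Thbd, which encodes CD141. Sulf1 was 76.4 and 72.7 CPM in the 461 and 1342 cells with a Thbd UMI and 12.6 and 18.1 CPM in the 88 and 1004 cells without one. Hpse took the opposite order, at 131 and 102 CPM with and 240 and 160 CPM without a Thbd UMI, and so did Hs6st1, at 12.9 and 16.7 CPM against 30.7 and 31.9 CPM. Both colonic libraries showed these orders. In the second small intestinal library the split gave 251 CPM for Sulf1 with and 203 CPM without a Thbd UMI, and only 6 cells of the first lacked one.

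**Figure D4:**
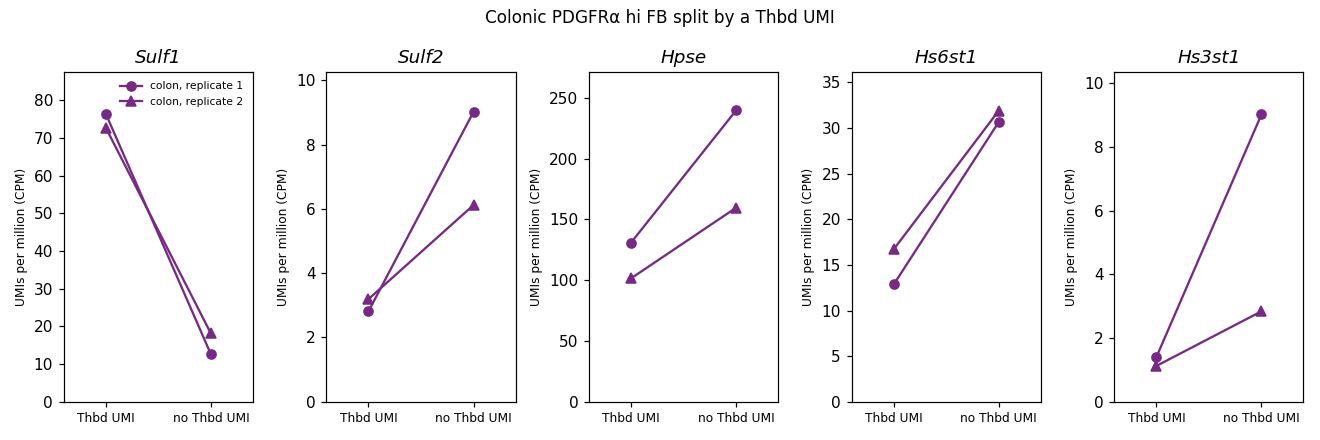
Level (y axis, CPM) of 5 genes in colonic PDGFRαhi FB with and without a Thbd UMI (x axis), with lines joining the 2 values of each colonic library. Sulf1 is higher in cells with a Thbd UMI in both libraries, and Hpse and Hs6st1 are lower.

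PDGFRαlo FB were split by UMIs of Fgfr2 and Cd34. Hpse was higher in cells with Fgfr2 and no Cd34 UMI (95.8 and 76.0 CPM in the small intestine, 281 and 241 CPM in the colon) than in cells with Cd34 and no Fgfr2 UMI (55.1 and 45.9 CPM, 195 and 163 CPM). Hs6st1 showed that order in the small intestine, at 42.6 and 47.4 CPM against 24.7 and 19.7 CPM. Colonic Sulf2 showed the opposite order, with 81.6 and 76.6 CPM in the Fgfr2 group and 178 and 165 CPM in the Cd34 group, whereas the small intestinal groups overlapped at 199 and 201 CPM against 184 and 213 CPM.

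Over the 20 class and library values, the genes given here from those whose profiles of log2(CPM + 10) were most like the members' were Plbd1 (r = 0.97) and Ltbp2 (r = 0.96) for Hs3st6, Gda (r = 0.95) for Sulf2, Clptm1l (r = 0.93) and Slc27a3 (r = 0.92) for Sulf1, and Clec3b (r = 0.87) and Kcnk2 (r = 0.86) for Hs3st1. Among the genes given, Hpse was close to Adam23 (r = 0.88) and Prrx2 (r = 0.87), Hs6st1 to Scarf2 (r = 0.89), Ndst1 to Brwd1 (r = 0.92) and Zzef1 (r = 0.88), and Ext1 to Sptbn1 (r = 0.94). The 5 classes of 1 library share its depth and preparation, so these values are a description over 8705 genes. Among the members themselves Hs3st6 and Sulf1 had r = 0.72, Hs3st6 and Hs6st1 r = 0.72, Sulf2 and Hs3st1 r = 0.67, Hpse and Sulf2 r = 0.09, and Hs3st6 and Hpse r = -0.33.

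For the wider pathway, the class sums were tested across all genes by edgeR (quasi-likelihood, Benjamini-Hochberg). A gene counted as called where its adjusted p was under 0.05 and its log2 value lay past 1.5 in either direction. The labels name 2 experiments but do not tie a library to its mice beyond that, so p-values measure the spread between these libraries. In PDGFRαhi FB, 1.46% of 11432 genes were called between the intestines. Of the 9 members 8 passed the low-count filter and 3 met the call (Hs3st1, Hs3st6 and Hpse), which the choice of members fixes and from which nothing is read. In PDGFRαlo FB 0.459% of genes and none of 8 members were called, in SMC 1.29% of genes and 2 of 7 members (Hpse and Sulf2), and in CD81+ FB 0% of genes and none of 7 members. The CD81+ FB fit had 934 of 11219 genes at an unadjusted p under 0.05, and DESeq2 called 220.

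Between the classes, with library as a block, 6.87% of genes and 2 of 7 members (Sulf1 and Sulf2) were called for PDGFRαhi against PDGFRαlo FB, and 2.53% and 1 of 7 (Hpse) for CD81+ against PDGFRαlo FB. The test of whether the colon effect differed between PDGFRαhi and PDGFRαlo FB, called on the adjusted p alone, passed for 9.35% of genes and 4 of 8 members (Hs3st1, Hpse, Sulf1 and Sulf2). These counts too follow from how the members were chosen.

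The pathway list held 53 further genes, from linker synthesis to lysosomal breakdown. None of the 43 tested in PDGFRαhi FB, 45 in PDGFRαlo FB and 44 in CD81+ FB was called between the intestines. An unadjusted p under 0.05 was found for 10, 11 and 5 of them. Over all genes it was found for 1434 of 11432, 1195 of 12428 and 934 of 11219. DESeq2 called 1, 1 and 0 pathway genes, against 522, 370 and 220 of all genes. With the replicate number as a block, edgeR called 2, 1 and 1 pathway genes, against 897, 626 and 344 of all genes. The median log2 difference of the pathway genes in the main fits was -0.18, -0.04 and -0.06, against 0.02, 0.01 and 0.00 over all genes tested. In SMC 2 of 35 pathway genes were called (5.71%, against 1.29% of all genes), both lower in the colon.

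Hpse2, the heparanase relative that binds heparan sulfate and lacks known cutting activity, was 1 of these 2. In SMC it had 93.1 and 31.6 CPM in the small intestine and 2.57 and 0.448 CPM in the colon, a log2 fold change of -5.32 (SE 0.78, edgeR adjusted p = 0.0254). Its fold changes in PDGFRαhi FB (-2.97, SE 0.54, edgeR adjusted p = 0.0809) and PDGFRαlo FB (-4.05, SE 0.65, edgeR adjusted p = 0.112) did not pass. In PDGFRαhi FB it stood at 122 and 51.2 CPM against 13.0 and 7.27 CPM, and in PDGFRαlo FB at 97.5 and 41.6 CPM against 6.46 and 2.64 CPM, so that each small intestinal library lay above both colonic ones, the opposite of Hpse. The SMC call was not kept without small intestine replicate 1 (log2 -4.34, edgeR adjusted p = 0.2332) or with doublets kept (log2 -4.30, edgeR adjusted p = 0.08296). Gpc6, a glypican core protein, was the other, at 50.6 and 69.4 CPM against 10.3 and 11.7 CPM (log2 -2.40, SE 0.40, edgeR adjusted p = 0.0388), and it missed the threshold without the first or the second small intestinal library (log2 -2.63 and -2.14, edgeR adjusted p = 0.09638 and 0.1384) and with doublets kept (log2 -1.79, edgeR adjusted p = 0.1869).

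Between PDGFRαhi and PDGFRαlo FB 794 genes were called over all genes, 488 of them lower in PDGFRαhi FB. Of 45 pathway genes outside the members 4 were called (8.89%, against 6.87% of all genes), and these were lower in PDGFRαhi FB. They were Ndst3, an N-sulfotransferase (log2 -4.77, SE 0.58, edgeR adjusted p = 0.00125), the glypican Gpc3 (log2 -4.26, SE 0.31, edgeR adjusted p = 4.63e-04), Ugdh, which makes UDP-glucuronic acid for the chain (log2 -1.89, SE 0.17, edgeR adjusted p = 5.82e-04), and the part-time proteoglycan Tgfbr3 (log2 -1.71, SE 0.15, edgeR adjusted p = 4.78e-04). Ndst3 was scarce in fibroblasts, at 2.68 to 8.90 CPM in PDGFRαlo FB and at most 0.883 CPM in PDGFRαhi FB, against 34.7 to 117 CPM in the few pericytes. For CD81+ against PDGFRαlo FB 3 of 45 pathway genes were called (6.67%, against 2.53% of all genes). In CD81+ FB Gpc3 was higher than in PDGFRαlo FB (log2 1.94, SE 0.16, edgeR adjusted p = 8.32e-04), and Hpse2 (log2 -1.95, SE 0.23, edgeR adjusted p = 0.00114) and the 3-O-sulfotransferase Hs3st3a1 (log2 -1.62, SE 0.25, edgeR adjusted p = 0.00273) were lower. Without colon replicate 2 the Hs3st3a1 fold change was -1.32 and fell short of the fold threshold.

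Chain building genes outside the members showed no called difference between the intestines in any fibroblast class. Ext2, the partner of EXT1, had log2 differences of 0.19 (SE 0.29) in PDGFRαhi FB and 0.28 (SE 0.21) in PDGFRαlo FB, and Hs2st1, which adds 2-O-sulfates, had -0.23 (SE 0.50) and 0.12 (SE 0.40). The lack of calls does not show equal levels. By mean, Extl3 and Glce were lower in the colon in each fibroblast class, and Ext2 was higher. In PDGFRαhi FB the small intestinal and colonic means were 43.5 and 19.0 CPM for Extl3 and 7.92 and 5.29 CPM for Glce. Those of Ext2 were 83.5 and 86.5 CPM. Of the remaining 3-O- and 6-O-sulfotransferases, Hs3st2 and Hs6st3 had no UMI in these classes, and Hs3st4 and Hs3st5 had at most 3 in a class of a library. Hs3st3b1 and Hs3st3a1 were present. In PDGFRαhi FB Hs3st3b1 had means of 80.1 CPM in the small intestine and 31.5 CPM in the colon. Hs3st3a1 had 35.2 and 23.8 CPM there, with overlapping libraries, and neither was called.

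For 7 of 45 pathway genes outside the members (15.6%, against 9.35% of all genes tested) the colon effect differed between PDGFRαhi and PDGFRαlo FB, among them the syndecans Sdc3 and Sdc4. Sdc3 stood at 35.1 and 40.2 CPM in small intestinal and 18.4 and 13.9 CPM in colonic PDGFRαhi FB, and in the opposite order, at 32.8 and 32.4 CPM against 59.4 and 51.3 CPM, in PDGFRαlo FB.

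**Figure D5:**
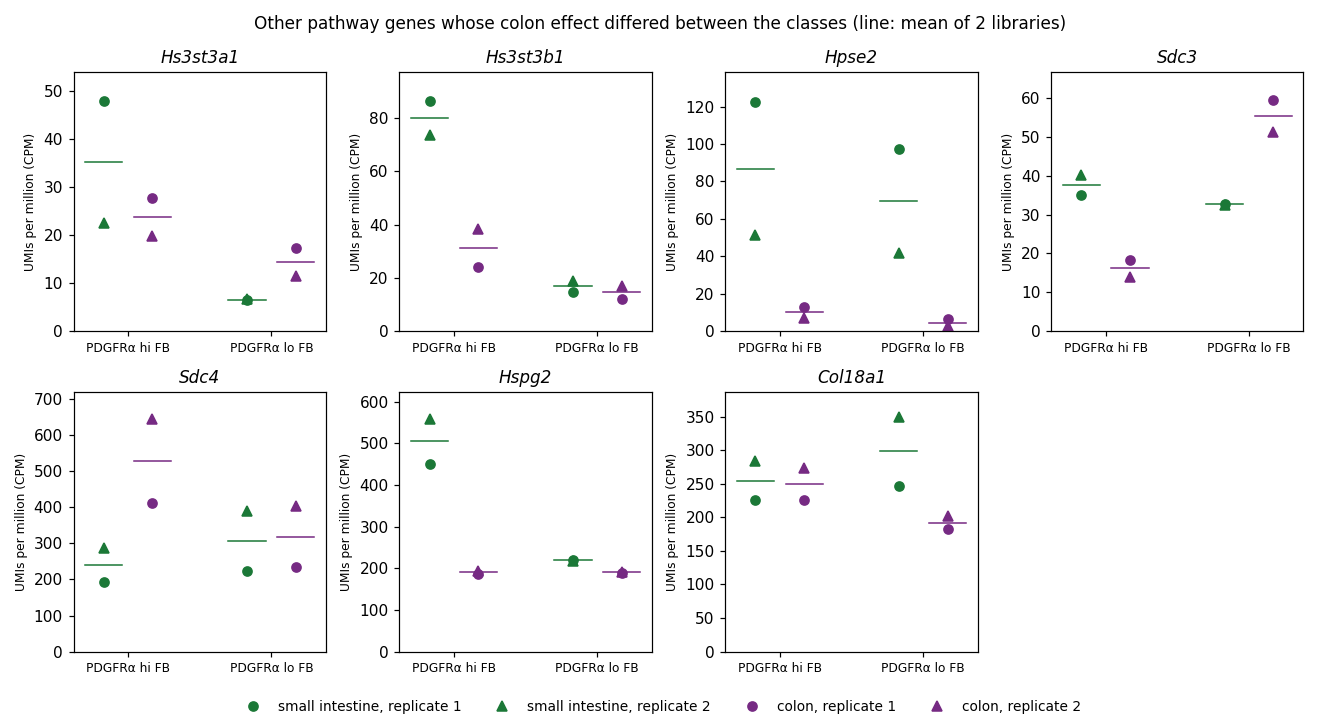
Level (y axis, UMIs scaled to CPM) of the 7 other pathway genes whose colon effect differed between PDGFRαhi and PDGFRαlo FB (x axis), with points for the 2 small intestinal (green) and 2 colonic (purple) libraries and lines at their means. Sdc3 is lower in the colon in PDGFRαhi FB and higher in PDGFRαlo FB.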

How the data were processed

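Single cell 3′ or 5′ libraries (10x Genomics) were analysed from the UMI count matrices the authors deposited, raw whole-number counts per gene and barcode, unnormalized. Per the labels the authors used Cell Ranger 3.0.2 with genome build mm10 and Seurat 3. The same rows of 28692 genes stood in each of the 4 matrices.

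Barcodes with at least 500 genes, 1000 UMIs and at most 10% mitochondrial UMIs were kept (32216 of 34983). Doublets were scored with Scrublet in scanpy 1.11.5. Since its automatic threshold did not work, the highest scoring 0.8% per 1000 barcodes of a library were left out (3226 in all). Cells were gated on mean z-scores of marker genes (log-normalized to 10000 UMIs). Gate thresholds were set after the marker scores had been seen. Member levels under a first version of the gates had also been seen before the pericyte, interstitial cell and PDGFRαhi limits were revised on marker genes, so the gates were not blind to the members. The members and lists were chosen with earlier results of these data known. PDGFRαhi scores within 0.1 of the limit held 1.16 to 4.18% of cells of a library and CD81+ scores 6.21 to 6.81%. By clusters, 95.7% of PDGFRαhi FB and 78.1% of CD81+ FB had the same class, the latter unevenly by library.

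Counts were summed per class and library and fitted with edgeR 4.0.16 (TMM, filterByExpr, robust quasi-likelihood, R 4.3.3). The fits were tested on simulated data. Alternatives were other size factors, DESeq2 1.42.0, no filter, a replicate block, leaving out each library, other gates and doublets kept. Named were the 9 members, the pathway genes called between intestines or between classes (at most 12 a fit, the class by intestine test not included), at most 2 further genes per functional group by highest mean level, and the 2 genes most like each member with at least 50 UMIs. Some of the latter are not reported here. With 2 against 2 libraries no exact permutation test of a single gene was run. Gene positions came from GENCODE vM21 (GRCm38, the build of mm10) and promoter stretches from RefSeq.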

Additional observations from a re-analysis of the deposited data

Results flagged for a closer look

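For 7 pathway genes outside the members, the colon effect differed between PDGFRαhi and PDGFRαlo FB by the interaction term of the edgeR fit (Benjamini-Hochberg adjusted p under 0.05, 45 pathway genes tested, 15.6% passing against 9.35% of all genes). Of these, Sdc3, Hspg2 and Col18a1 fell outside the rule for named genes and were chosen after their values were seen. The values below are the log2 colon effect in PDGFRαhi FB minus that in PDGFRαlo FB.

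The syndecan Sdc3 had -1.85 (SE 0.21, edgeR adjusted p = 3.09e-06), being lower in colonic than small intestinal PDGFRαhi FB (18.4 and 13.9 against 35.1 and 40.2 CPM) and higher in colonic PDGFRαlo FB (59.4 and 51.3 against 32.8 and 32.4 CPM). The syndecan Sdc4 had 1.26 (SE 0.15, edgeR adjusted p = 3.85e-06), with 414 and 645 CPM in colonic and 192 and 289 CPM in small intestinal PDGFRαhi FB, and overlapping levels in PDGFRαlo FB. The matrix proteoglycan genes were Hspg2 (perlecan), at -1.03 (SE 0.15, edgeR adjusted p = 6.99e-05), and Col18a1, at 0.77 (SE 0.15, edgeR adjusted p = 0.00107).

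The 3-O-sulfotransferases Hs3st3a1 and Hs3st3b1 had -1.26 (SE 0.29, edgeR adjusted p = 0.00717) and -0.87 (SE 0.22, edgeR adjusted p = 0.0136). Hpse2 had 1.11 (SE 0.25, edgeR adjusted p = 0.00542), its colonic level being less far below the small intestinal one in PDGFRαhi FB. With DESeq2 Hs3st3a1 had -1.36 (adjusted p = 0.1038) and Hs3st3b1 -0.95 (adjusted p = 0.1461). Without small intestine replicate 1 they had -0.84 and -0.67 (edgeR adjusted p = 0.144 and 0.1225), without colon replicate 1 Hs3st3b1 had -0.79 (edgeR adjusted p = 0.05558), and without colon replicate 2 Hpse2 had 0.86 (edgeR adjusted p = 0.154).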

How the results depend on the processing

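The number of called genes depended strongly on the settings in the comparisons of the intestines, and the cause was not tested. In PDGFRαhi FB 167 genes were called, 522 with DESeq2 and 596 with no low-count filter, and between 0 (small intestine replicate 2 left out) and 676 (colon replicate 1 left out), 38 with small intestine replicate 1 and 619 with colon replicate 2 left out. In PDGFRαlo FB 57 were called, 370 with DESeq2, 318 with no filter, and 0 (without either small intestinal library) to 230 (without colon replicate 1), with 99 without colon replicate 2. In CD81+ FB 0 were called, 220 with DESeq2, 280 with no filter, 118 with clusters gated, 14 with a stricter gate margin, 25 with doublets kept, and 0 to 151 (without colon replicate 1) with a library left out, with 99 without colon replicate 2. In SMC 118 were called, 224 with DESeq2, 494 with no filter, 300 with clusters gated, 23 with doublets kept, and 47 (without small intestine replicate 1) to 245 (without colon replicate 2) with a library left out, with 226 without colon replicate 1. A lone library was taken to vary like the others.

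Pathway genes called outside the members followed. In PDGFRαhi FB none became 1 with DESeq2, no filter or a stricter gate margin, and 0 to 2 with a library left out. In PDGFRαlo FB none became 1 with DESeq2 or no filter and 0 to 1 with a library left out, which was also the range in CD81+ FB. In SMC 2 became 5 with no filter, 0 with doublets kept and 0 to 3 with a library left out. Between classes, 794 genes became 1201 with no filter (PDGFRαhi against PDGFRαlo FB), and 289 became 474 with no filter and 527 with clusters gated (CD81+ against PDGFRαlo FB), where 3 pathway genes became 9 with clusters gated and 6 with a stricter gate margin. The class by tissue count of 1158 was 632 with DESeq2.

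The replicate number as a block raised the called genes to 897 in PDGFRαhi FB, 626 in PDGFRαlo FB, 344 in CD81+ FB and 462 in SMC, and the pathway genes to 2, 1, 1 and 6. Deviations of same-numbered libraries from their group means correlated at 0.74, 0.74, 0.64 and 0.52. Libraries of 1 number also shared more barcodes (8 and 69, against 0 to 2 across numbers) and a similar depth, so the number goes with a technical difference across the intestines. No label ties it to shared mice, kit or day, and there are only 2 pairs, so the fits without the block stand in the report.

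For the members, 344 alternative log2 differences stayed within 1 SE of a difference between 2 such values and 13 moved further. Small intestinal SMC and pericytes were few, and levels under the floor of 3 counts were not resolved. For shares of cells, 116 of 180 left their interval when cells were not thinned and 87 of 180 at 2000 UMIs.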
